A study of Mus musculus with 16 samples.

Results

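Interferon-stimulated genes were examined in cells of the mouse colon that the study sorted as fibroblasts. The group was a list of 39 genes, and a gene counted as measured where a probe set of the array carried it as its only gene symbol. On that rule 34 of the 39 genes were measured, by 51 of the 45141 probe sets, among 17097 genes measured in all. Isg15, Bst2, Ifi44, Tap1 and Tap2 are not analysed here. All cells came from C57BL/6 mice of the genotype Gli1CreERT2-ZsGreen, given 1 mg of tamoxifen on 5 days in a row and killed on day 6. In these mice tamoxifen activates the Cre made from the Gli1 locus, and the ZsGreen reporter marks cells in which it was active and their descendants. The 4 populations were sorted as Epcam-, CD45-, CD31- and GP38+ and then divided by the surface protein Sca1 and by ZsGreen. They were Sca1+Gli1ZsGreenhigh (reporter-high), Sca1+Gli1ZsGreendim (reporter-dim), Sca1+Gli1ZsGreen- (Sca1+ reporter-negative) and Sca1-Gli1ZsGreen- (Sca1- reporter-negative) cells. Each was measured on 1 array for each of 4 mice, and mice without tamoxifen were not part of the design.

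Interferons are secreted proteins that warn cells of infection. Type I interferons act through the receptor Ifnar1 and Ifnar2 and the kinases Jak1 and Tyk2, which lead to a complex with Stat2 and Irf9 that binds the interferon-stimulated response element (ISRE) of target genes. Interferon gamma acts through Ifngr1 and Ifngr2, and its targets often carry the gamma-activated site (GAS). Target genes encode sensors of viral nucleic acid, effectors that block replication, proteins of antigen processing, and factors of the pathway itself, and many are expressed at a low tonic level without infection.

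Signals are whole-number probe set signals on the linear scale of the arrays, and differences are log2 differences of population means ± SE from limma with 4 arrays per population. A difference was called where its p, adjusted over all 17097 genes, was under 0.05. Array medians lay between 661 and 686, and the highest nonspecific control of an array, used as its background, lay between 234 and 488. The number of arrays limits the precision. As a check of the sort, Gli1 had a signal of 2611 ± 320.6 (SD, n = 4) in reporter-high and 1104 ± 298.6 in Sca1+ reporter-negative cells. In reporter-dim cells Gli1 had 2705, 2183, 2442 and 1961, which overlapped the reporter-high arrays. Epcam, an epithelial surface protein selected against in the sort, had 3472 ± 2370 in reporter-high and 17880 ± 3522 in Sca1+ reporter-negative cells. In reporter-dim cells Epcam had 6249, 7773, 13478 and 13623, and it was above array background on all 16 arrays. The labelled absence of Epcam was thus not matched by its mRNA in any of the 4 populations. Pecam1, which encodes CD31, was also above array background on all 16 arrays, and Ptprc, which encodes CD45, on 15. Pecam1 had 790, 909, 1067 and 1111 in reporter-high and 5043, 4135, 2882 and 4198 in Sca1+ reporter-negative cells. In bulk samples, fewer cells of a type and less RNA per cell cannot be told apart.

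The labels give each population of a mouse the same animal number, but the arrays of mouse 2 did not match one another. In 6 arrays Xist, the RNA of the inactive X chromosome, was at most 671 and the Y-linked Eif2s3y at least 2901. These were the 4 arrays of mouse 1 and the reporter-high and reporter-dim arrays of mouse 2. In the other 10 arrays Xist was at least 18116 and Eif2s3y at most 197, and these included both reporter-negative arrays of mouse 2. Results are therefore also given without the arrays of mouse 2.

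The promoter windows of 6 genes on which the results turn are shown first, to set the known response elements beside the values. Each runs from 250 bases before to 50 bases after the start site in RefSeq (GRCm38.p6), 5′ to 3′ on the strand of the gene, with base 0 as the start site. Capitals mark matches on either strand to ISRE letters (a pair of GAAA blocks with any 2 bases between them) or to the GAS letters TTCNNNGAA. Stat2 (chr10:128270248-128270547, plus strand), Gbp2 (chr3:142620413-142620712, plus strand) and Samhd1 (chr2:157135047-157135346, minus strand) stand for genes that differed between populations. Ifit1 (chr19:34640639-34640938, plus strand), Rsad2 (chr12:26456403-26456702, minus strand) and Irf7 (chr7:141266375-141266674, minus strand) are among the genes described below by mouse number. Of these, Rsad2 was also called lower in reporter-high than in reporter-negative cells.
Stat2: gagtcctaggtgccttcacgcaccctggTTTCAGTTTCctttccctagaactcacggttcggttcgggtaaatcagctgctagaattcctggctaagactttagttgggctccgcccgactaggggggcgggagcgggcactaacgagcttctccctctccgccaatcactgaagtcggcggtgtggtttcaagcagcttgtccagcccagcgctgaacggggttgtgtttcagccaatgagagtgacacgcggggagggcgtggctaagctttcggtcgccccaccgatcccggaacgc
Gbp2: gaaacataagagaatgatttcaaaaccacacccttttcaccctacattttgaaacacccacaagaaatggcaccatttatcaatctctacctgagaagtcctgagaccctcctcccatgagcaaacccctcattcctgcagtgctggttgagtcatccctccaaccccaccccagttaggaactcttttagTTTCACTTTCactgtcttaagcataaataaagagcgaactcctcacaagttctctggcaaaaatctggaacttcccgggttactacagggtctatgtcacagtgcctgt
Samhd1: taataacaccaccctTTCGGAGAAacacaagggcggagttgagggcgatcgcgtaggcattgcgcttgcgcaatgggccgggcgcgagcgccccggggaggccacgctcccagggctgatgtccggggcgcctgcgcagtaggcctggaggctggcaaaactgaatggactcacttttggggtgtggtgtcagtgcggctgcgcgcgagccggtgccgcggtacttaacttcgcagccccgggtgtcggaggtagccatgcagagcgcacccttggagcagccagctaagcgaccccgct
Ifit1: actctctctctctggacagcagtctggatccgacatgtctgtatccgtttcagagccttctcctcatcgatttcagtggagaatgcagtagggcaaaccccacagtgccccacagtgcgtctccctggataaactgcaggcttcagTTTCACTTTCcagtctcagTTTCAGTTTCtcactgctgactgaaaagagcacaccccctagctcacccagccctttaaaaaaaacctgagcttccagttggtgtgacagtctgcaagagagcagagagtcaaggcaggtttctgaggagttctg
Rsad2: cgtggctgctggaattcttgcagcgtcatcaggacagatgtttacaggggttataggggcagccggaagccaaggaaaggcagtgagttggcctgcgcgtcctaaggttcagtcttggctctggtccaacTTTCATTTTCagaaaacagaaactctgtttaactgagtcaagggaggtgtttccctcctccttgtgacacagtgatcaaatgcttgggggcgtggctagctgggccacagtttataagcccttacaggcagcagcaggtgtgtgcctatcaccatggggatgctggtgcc
Irf7: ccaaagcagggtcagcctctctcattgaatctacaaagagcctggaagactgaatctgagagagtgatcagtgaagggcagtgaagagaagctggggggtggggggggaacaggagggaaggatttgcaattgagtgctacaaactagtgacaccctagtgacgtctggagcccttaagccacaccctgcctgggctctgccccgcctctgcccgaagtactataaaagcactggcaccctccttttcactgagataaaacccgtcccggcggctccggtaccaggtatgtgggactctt
The ISRE match lay at bases -222 to -213 in Stat2, -59 to -50 in Gbp2 and -120 to -111 in Rsad2. Ifit1 held 2 such matches, at -104 to -95 and -85 to -76. Samhd1 held a GAS match at -235 to -227, and the letters of neither motif were found in the window of Irf7. Of the 34 measured genes, 27 had a window in the table, and Dhx58, Mx1, Mx2, Oas2, Parp14, Usp18 and Zbp1 had none there. ISRE letters were present in 12 of the 27 (44.4%), against 3.99% of 27025 genes, and 3.44% of all 32851 windows. GAS letters were present in 9 of the 27 (33.3%), against 9.55% of genes, and 8.3% of all windows. No match overlapped a match to the other motif in the 6 windows shown. A match is a description of the letters and not a measured binding site.

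Across the 4 populations, the moderated F test of limma called 9 of 34 genes, against 32.3% of all 17097 genes. They were Samhd1, Gbp2, Ifi35, Stat2, Psmb8, Ddx58, Ifit2, Usp18 and Irf8, with adjusted p between 0.00161 for Samhd1 and 0.0402 for Irf8. With the mouse as a block 14 were called, against 36.4% of all genes. Without mouse 2 the count was 5, against 15.2% of all genes, and without mouse 4 it was 2, against 17.9%. Between populations lay a median of 39.6% of a gene's variance over the 16 arrays, against 38.1% for all genes, and between mouse numbers 20.9%, against 17.3%. The heat map of the 34 genes shows both patterns, columns that differ by population and columns that share a mouse number.

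**Figure D1:**
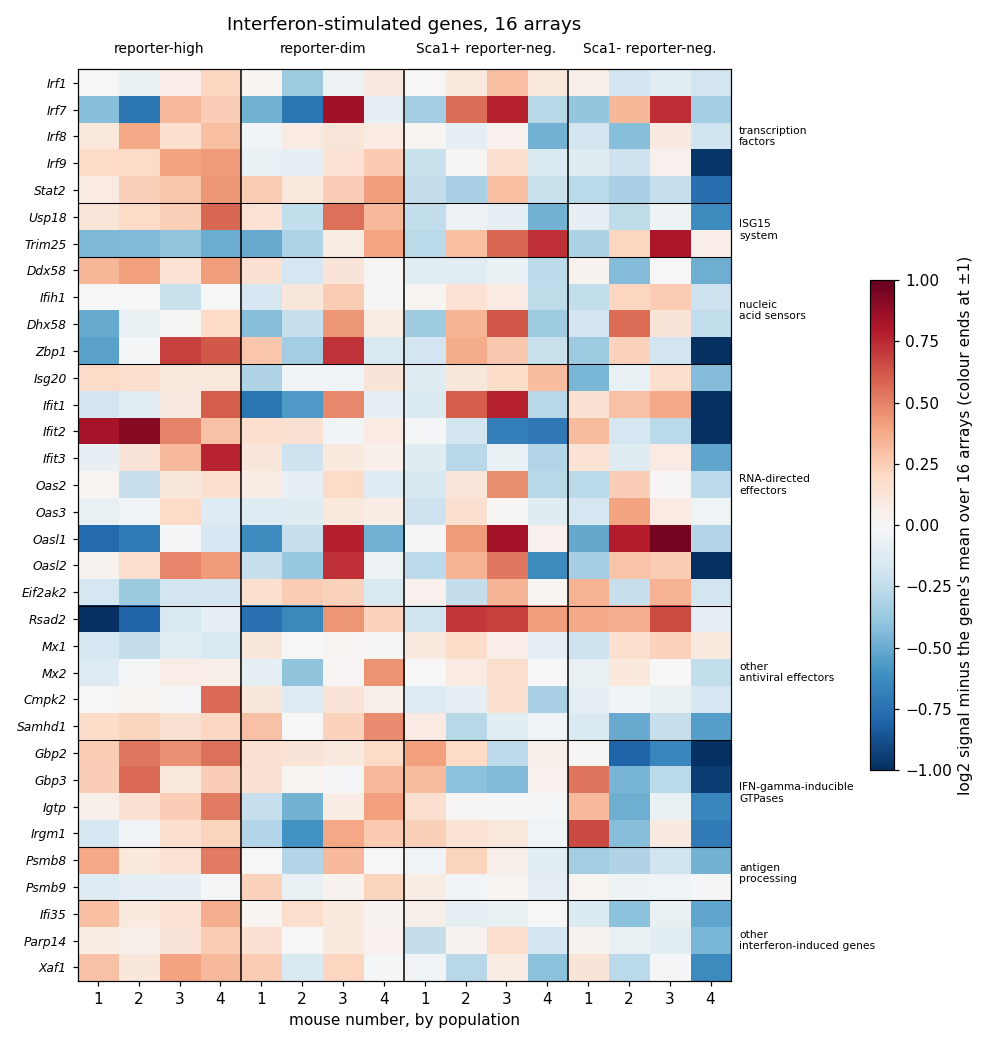
Log2 signal of each of the 34 measured genes minus its mean over 16 arrays, by population (left to right) and mouse number, with genes in rows by role. Gbp2, Stat2, Samhd1 and Ifi35 are redder in reporter-high and bluer in Sca1- reporter-negative columns, while Irf7 and Oasl1 are redder in the columns of mouse 3 in several populations.

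Reporter-high cells were first set against Sca1+ reporter-negative cells, the comparison of the reporter among cells sorted as Sca1+. The epithelial markers differed strongly between the same arrays, as given for Epcam above and for 17 markers below. Of the 34 genes 6 were higher and 2 lower. That is 23.5% called, against 30.9% of all genes (17% higher and 13.9% lower). The median difference was 0.16 over the 34 genes and -0.002 over all genes. The signals of the populations did not overlap in 8 higher and 2 lower of the 34, against 15.3% and 14.9% of all genes. Without the arrays of mouse 2 none of the 34 was called by limma, against 16% of all genes, with 8 higher and 1 lower at an unadjusted p under 0.05, where all genes had 16.8% and 14.4%. Without mouse 4 the count was 1, against 18.7% of all genes, and without mouse 3 it was 5, against 24.7%. Scaled to the hybridization controls, which shifts the median of all genes by 0.38, 18 of the 34 were higher and 0 lower, against 63.9% of all genes higher, and their median was 0.54.

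Ifit2, which binds viral RNA and inhibits translation, had the largest of these differences. Its signal was 1164, 1238, 927 and 806 in reporter-high cells of mice 1 to 4, against 649, 578, 410 and 400 in Sca1+ reporter-negative cells. Every reporter-high array was above every Sca1+ reporter-negative array, a difference of 1.03 ± 0.25 (limma adjusted p = 0.00594). In Sca1- reporter-negative cells Ifit2 had 820, 587, 547 and 289. Without mouse 2 the difference to Sca1+ reporter-negative cells was 1.01 and its adjusted p 0.0577. Its neighbour Ifit3 had 2268, 2626, 3002 and 4070 in reporter-high and 2205, 1982, 2278 and 1953 in Sca1+ reporter-negative cells. It had 2595, 2073, 2567 and 2488 in reporter-dim and 2630, 2200, 2533 and 1673 in Sca1- reporter-negative cells. Reporter-high and Sca1+ reporter-negative cells overlapped in Ifit3, and the difference was 0.48 ± 0.16 (limma adjusted p = 0.0393). Ifit1, of the same family, differed by -0.14 ± 0.36 and was not called (limma adjusted p = 0.813). Whether it departed from Ifit2 and Ifit3 was not tested.

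Ddx58 encodes RIG-I, a sensor of viral RNA. It had 3460, 3642, 3021 and 3665 in reporter-high cells, against 2556, 2560, 2621 and 2296 in Sca1+ reporter-negative cells. The groups did not overlap, and the difference was 0.46 ± 0.12 (limma adjusted p = 0.00899). It had 3053, 2442, 2997 and 2768 in reporter-dim and 2820, 2038, 2746 and 1963 in Sca1- reporter-negative cells. Ddx58 was measured by 3 probe sets and was higher on each. Ifih1, which encodes the related sensor MDA5, differed by -0.06 ± 0.13 and Dhx58, their regulator LGP2, by -0.15 ± 0.25, and neither was called. Usp18, the protease that removes ISG15 from proteins and restrains the type I receptor, had 693, 726, 751 and 946 in reporter-high and 537, 611, 597 and 458 in Sca1+ reporter-negative cells. All reporter-high arrays lay above the Sca1+ reporter-negative ones (0.50 ± 0.17, limma adjusted p = 0.0333). Irf8, a transcription factor best known in myeloid cells, had 2894, 3523, 3004 and 3313 in reporter-high cells, against 2740, 2532, 2770 and 1933 in Sca1+ reporter-negative cells, again with no overlap (0.36 ± 0.12, limma adjusted p = 0.0311). In reporter-dim cells Usp18 had 705, 538, 933 and 798 and Irf8 2645, 2841, 2928 and 2848. In Sca1- reporter-negative cells Usp18 had 601, 533, 615 and 413 and Irf8 2363, 2004, 2855 and 2342. Xaf1, a pro-apoptotic partner of XIAP, had 1456, 1281, 1571 and 1490 in reporter-high cells, against 1167, 978, 1251 and 896 in Sca1+ reporter-negative cells. These did not overlap (0.44 ± 0.15, limma adjusted p = 0.0389). Different probe sets of a gene gave unequal differences for Samhd1 and for Cmpk2, a nucleotide kinase beside Rsad2, whose representative probe set was not called. The representative probe set of Cmpk2 gave 0.24 and the other 0.74, and for Samhd1 these were 0.28 and 0.69. Tested by itself, the other probe set of Cmpk2 was called here (limma adjusted p = 0.00129). It was also called against Sca1- reporter-negative cells (0.93, limma adjusted p = 0.000138).

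Rsad2 and Trim25 were the 2 members called lower in the reporter-high population. Rsad2 encodes viperin, which makes a chain-terminating nucleotide. Its signal was 530, 677, 1062 and 1115 in reporter-high and 1030, 1930, 1894 and 1582 in Sca1+ reporter-negative cells. It was lower in mice 1, 3 and 4, whose arrays matched one another in Xist and Eif2s3y. The groups overlapped, with a difference of -0.95 ± 0.30 (limma adjusted p = 0.0269). In reporter-dim cells Rsad2 had 704, 754, 1605 and 1388, and in Sca1- reporter-negative cells 1538, 1522, 1856 and 1114. Trim25, a ubiquitin ligase that acts on RIG-I in human cells, had 1421, 1423, 1473 and 1374 in reporter-high cells, against 1605, 2379, 2889 and 3220 in Sca1+ reporter-negative cells. The reporter-high arrays were nearly alike, while the Sca1+ reporter-negative ones spread widely and all lay above them (-0.78 ± 0.25, limma adjusted p = 0.0248). Trim25 had 1367, 1564, 2038 and 2543 in reporter-dim and 1552, 2246, 3418 and 2025 in Sca1- reporter-negative cells. Stat2 was higher by 0.38 ± 0.14 and Samhd1 by 0.28 ± 0.11, and neither was called (limma adjusted p = 0.0526 and 0.0684). Both were called with the mouse as a block, which called 8 higher and 3 lower, against 34.4% of all genes (limma adjusted p = 0.0465 and 0.0424). That block pairs the arrays of mouse 2, which did not match one another in Xist and Eif2s3y. Without mouse 2 and without a block, Stat2 differed by 0.32 (limma adjusted p = 0.249). The other probe set of Samhd1 was also called without the block when every probe set was tested by itself (0.69, limma adjusted p = 0.00157). Oasl1, which in mice restrains translation of Irf7, differed by -0.74 ± 0.36 (limma adjusted p = 0.14, 0.0122 with the block).

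**Figure D2:**
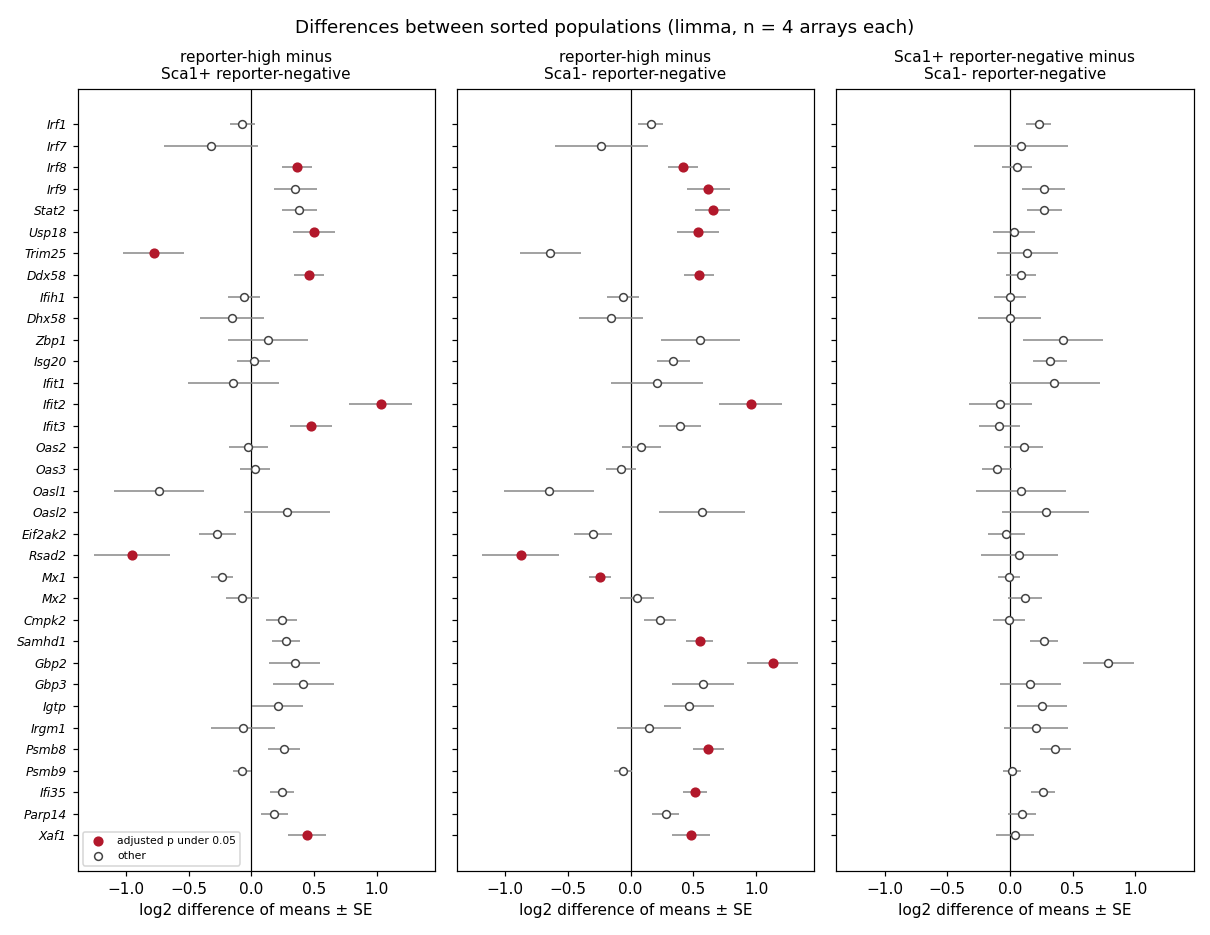
Log2 difference of means ± SE (limma, n = 4 arrays per population) for the 34 genes in 3 comparisons; filled points have an adjusted p under 0.05 over 17097 genes. The first panel has 8 filled points, the second 13 and the third 0.

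Reporter-high cells were then set against Sca1- reporter-negative cells, which differ in both sort markers. Here 11 of the 34 genes were higher and 2 lower. Called in all were 38.2%, against 35.9% of all genes (19.2% higher and 16.7% lower), and the higher share of the list was 32.4%. The median was 0.31 over the 34 genes, against -0.01 over all genes. Signals did not overlap in 11 higher and 1 lower gene, against 16.3% and 15% of all genes. Without mouse 2, 8 were higher and 0 lower, against 22.4% of all genes called. Scaled to the hybridization controls, with a shift of 0.46 in the median of all genes, 26 were higher and 0 lower, against 72.9% of all genes higher.

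Gbp2, an interferon gamma-inducible GTPase that attacks membranes of intracellular pathogens, had 5651, 6832, 6528 and 6953 in reporter-high cells, against 4787, 2720, 3028 and 1930 in Sca1- reporter-negative cells. No Sca1- reporter-negative array reached the lowest reporter-high one (1.13 ± 0.20, limma adjusted p = 0.000532). Gbp3, Igtp and Irgm1, the other GTPases of this kind, differed by 0.58 ± 0.24, 0.46 ± 0.20 and 0.14 ± 0.25, and none was called. Among the factors that carry the signal, Stat2 had 2015, 2238, 2310 and 2579 in reporter-high and 1580, 1519, 1619 and 1128 in Sca1- reporter-negative cells, with no overlap (0.65 ± 0.14, limma adjusted p = 0.00202). In Sca1+ reporter-negative cells Stat2 had 1610, 1519, 2348 and 1627, with mouse 3 alone in the range of reporter-high cells. Its partner Irf9 had 3263, 3245, 3754 and 3824 in reporter-high cells, against 2610, 2463, 2923 and 1453 in Sca1- reporter-negative cells (0.62 ± 0.17, limma adjusted p = 0.0106). Irf9 had 2707, 2659, 3146 and 3407 in reporter-dim and 2439, 2875, 3182 and 2571 in Sca1+ reporter-negative cells, between those 2 populations on average. Irf8 was higher by 0.42 ± 0.12, so 3 of 5 transcription factors (60%) were higher, against 19.2% of all genes. By role this share ran from 11.1% of the RNA-directed effectors to 66.7% of the other interferon-induced genes of the list. Irf1, which is induced by interferon gamma, had 9755, 9348, 10229 and 11315 in reporter-high and 10150, 8557, 9099 and 8601 in Sca1- reporter-negative cells. These overlapped, and Irf1 was not called. Irf1 had 9899, 7638, 9453 and 10424 in reporter-dim and 9733, 10429, 12057 and 10509 in Sca1+ reporter-negative cells.

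Samhd1, which depletes the nucleotides that viruses need, had 4494, 4603, 4399 and 4558 in reporter-high cells, against 3572, 2781, 3370 and 2697 in Sca1- reporter-negative cells. The reporter-high arrays were close to one another and above all others of that pair (0.55 ± 0.11, limma adjusted p = 0.00113). In Sca1+ reporter-negative cells Samhd1 had 4181, 3258, 3666 and 3853. Psmb8, a subunit of the immunoproteasome that cuts antigen peptides, had 4367, 3593, 3688 and 4778 in reporter-high and 2612, 2711, 2909 and 2405 in Sca1- reporter-negative cells, again apart (0.62 ± 0.12, limma adjusted p = 0.00123). Psmb8 had 3330, 2722, 4163 and 3317 in reporter-dim and 3244, 3897, 3461 and 3076 in Sca1+ reporter-negative cells. Psmb9, another immunoproteasome subunit, differed by -0.06 ± 0.07 and was not called. Ifi35, an interferon-induced leucine zipper protein, had 3472, 3009, 3090 and 3623 in reporter-high cells, against 2558, 2116, 2666 and 1964 in Sca1- reporter-negative cells (0.51 ± 0.10, limma adjusted p = 0.000714). In Sca1+ reporter-negative cells Ifi35 had 2936, 2643, 2693 and 2822, below all reporter-high arrays.

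Ddx58, Ifit2, Usp18 and Xaf1 were higher here as well, by 0.54 ± 0.12, 0.96 ± 0.25, 0.53 ± 0.17 and 0.48 ± 0.15. Isg20, an RNA-degrading exonuclease, had 5300, 5227, 4974 and 4995 in reporter-high and 3398, 4411, 5214 and 3451 in Sca1- reporter-negative cells, which overlapped, and was not called (0.34 ± 0.13, limma adjusted p = 0.0582). In reporter-dim cells Isg20 had 3770, 4553, 4540 and 5089, and in Sca1+ reporter-negative cells 4288, 5028, 5281 and 5748. Lower were Rsad2 by -0.88 ± 0.30 (limma adjusted p = 0.0349) and the dynamin-like GTPase Mx1 by -0.24 ± 0.09 (limma adjusted p = 0.0439). Both were lower in 2 of mice 1, 3 and 4. The difference of Mx1 turned to 0.23 when arrays were scaled to the hybridization controls. The plot of signals by population shows 6 of the genes called by the F test.

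**Figure D3:**
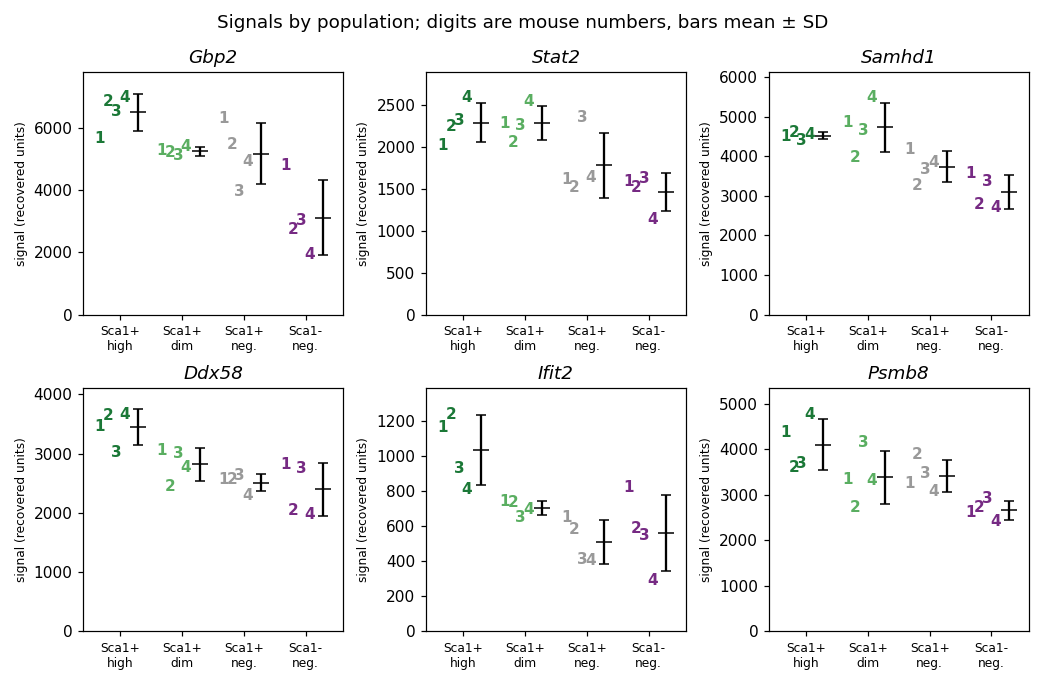
Signal of Gbp2, Stat2, Samhd1, Ddx58, Ifit2 and Psmb8 by population, with each array drawn as its mouse number and bars as mean ± SD of 4 arrays. In Gbp2 the reporter-high arrays lie between 5651 and 6953, above the Sca1- reporter-negative arrays at 1930 to 4787.

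Reporter-dim cells were also set against Sca1- reporter-negative cells. There 4 of the 34 genes were higher and 0 lower, 11.8%, against 13.9% of all genes (7.96% higher and 5.89% lower). Samhd1 had 4844, 3971, 4638 and 5470 in reporter-dim cells and was higher by 0.61 ± 0.11 (limma adjusted p = 0.00217). Stat2 had 2270, 2045, 2252 and 2541 (0.65 ± 0.14, limma adjusted p = 0.007). Gbp2 had 5267, 5189, 5092 and 5410 (0.83 ± 0.20, limma adjusted p = 0.0142), and Ifi35 had 2857, 3186, 3019 and 2877 (0.37 ± 0.10, limma adjusted p = 0.0183). For these 4 genes no reporter-dim array fell within the range of the Sca1- reporter-negative arrays given above. Without mouse 2 the count was 1, Samhd1 (limma adjusted p = 0.0133), against 3.59% of all genes, and without mouse 4 it was 0, against 4.61%.

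The 3 remaining comparisons called none of the 34 genes with limma. Between Sca1+ and Sca1- reporter-negative cells 0 were called, against 2.45% of all genes, with 6 higher and 0 lower at an unadjusted p under 0.05, where all genes had 6.19% and 5.54%. The difference was above 0 in 26 of 34 genes, against 49.8% of all genes, and the median was 0.10, against -0.0007. Gbp2 had 6296, 5460, 3959 and 4925 in Sca1+ and 4787, 2720, 3028 and 1930 in Sca1- reporter-negative cells. It was higher in each mouse but the groups overlapped (0.78 ± 0.20, limma adjusted p = 0.0581, and 0.0442 with the mouse as a block). The block called this gene alone, against 3.71% of all genes. It pairs the arrays of mouse 2, which did not match one another. Without mouse 2 the block called 0, against 2.16% of all genes.

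Between reporter-dim and Sca1+ reporter-negative cells 0 were called, against 1.51% of all genes, with 3 higher and 0 lower unadjusted, where all genes had 10.1% and 11.6%. With the mouse as a block 1 was called, against 14% of all genes. This was Samhd1 (0.34 ± 0.11, limma adjusted p = 0.113, and 0.037 with the block). With mouse 2 left out the block called 0, against 4.66% of all genes. Between reporter-high and reporter-dim cells 0 were called, against 1.42% of all genes, with 3 higher and 3 lower unadjusted, where all genes had 9.57% and 7.32%. Among these Ifit2 had 1164, 1238, 927 and 806 in reporter-high and 738, 732, 647 and 696 in reporter-dim cells, which did not overlap (0.54 ± 0.25, limma adjusted p = 0.295). Scaled to the hybridization controls, with a shift of 0.35 in the median of all genes, 14 of the 34 were higher in reporter-high cells, against 56.5% of all genes.

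The mouse numbers were examined after these values were seen, so what follows is a description of these arrays. In 12 of the 34 genes (35.3%) more of the variance lay between mouse numbers than between populations, against 28.3% of all genes. Irf7, the factor that amplifies type I interferon production, had 59.3% of its variance between mouse numbers and 6.59% between populations. Dhx58 had 53.4% and 3.69%, and Oasl1 53.9% and 27.1%. At the other end, Samhd1 had 9.95% between mouse numbers and 75.8% between populations.

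**Figure D4:**
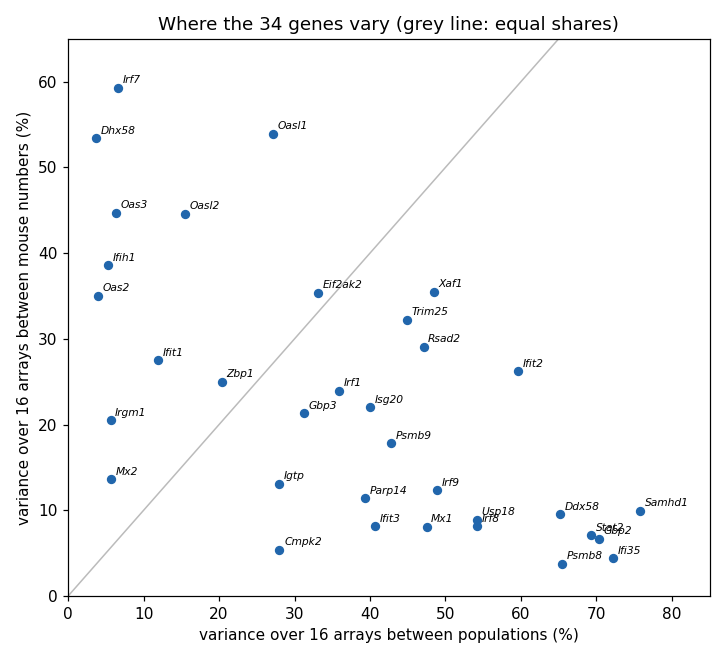
Share of each gene's variance over 16 arrays that lay between populations (x axis, percent) and between mouse numbers (y axis, percent), for the 34 genes. Irf7, Dhx58 and Oasl1 lie above the line of equal shares with over 50% between mouse numbers, and Samhd1, Ifi35 and Gbp2 lie at the right with over 70% between populations.

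Irf7 had 1682, 1362, 2830 and 2685 in reporter-high cells of mice 1 to 4 and 1633, 1372, 4047 and 2110 in reporter-dim cells. It had 1774, 3327, 3853 and 1864 in Sca1+ and 1727, 2851, 3780 and 1783 in Sca1- reporter-negative cells. Mouse 3 was highest in all 4 populations, and mouse 2 was lowest in both reporter-positive populations and the next highest in both reporter-negative ones. The 6 arrays with low Xist reached at most 1774 and the 10 others began at 1783. Of the 34 genes 1 was so divided, and of all genes 0.216% were in this direction and 0.292% in the other.

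Oasl1 had 375, 393, 637 and 570 in reporter-high and 414, 548, 1100 and 459 in reporter-dim cells. Its signals were 636, 860, 1144 and 660 in Sca1+ and 450, 1107, 1246 and 523 in Sca1- reporter-negative cells. Mouse 3 was again the highest of each population. Ifit1, which binds viral RNA lacking host cap marks, had 1041, 1098, 1264 and 1808 in reporter-high and 717, 803, 1658 and 1120 in reporter-dim cells. In Sca1+ reporter-negative cells it had 1083, 1809, 2029 and 982, and in Sca1- reporter-negative cells 1318, 1454, 1544 and 494. Its highest array was that of mouse 3 in all populations but reporter-high cells, where it was mouse 4. Mouse 3 lay above mouse 1 in all 4 populations in 14 of the 34 genes (41.2%), against 16.4% of all genes, and below it in 3 (8.82%), against 16%. The 14 were Ifit1, Rsad2, Irf7, Irf8, Irf9, Mx2, Oas2, Oas3, Oasl1, Oasl2, Dhx58, Usp18, Trim25 and Zbp1. Epcam mRNA was also higher in mouse 3 than in mouse 1 in all 4 populations. From reporter-high to Sca1- reporter-negative cells it was 6869, 13478, 20060 and 21786 in mouse 3, against 2010, 6249, 12855 and 10080 in mouse 1. All arrays of mouse 1 had low Xist and all arrays of mouse 3 had high Xist. The part of either in these differences was not tested. The limma F test over mouse numbers, with populations in the fit, called 1 of the 34 genes, Oasl1 (adjusted p = 0.0288), against 4.84% of all genes. Without mouse 2 it called 3, which were Irf7 (adjusted p = 0.00478), Oasl1 (0.00584) and Oasl2 (0.0497), against 10.9% of all genes.

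**Figure D5:**
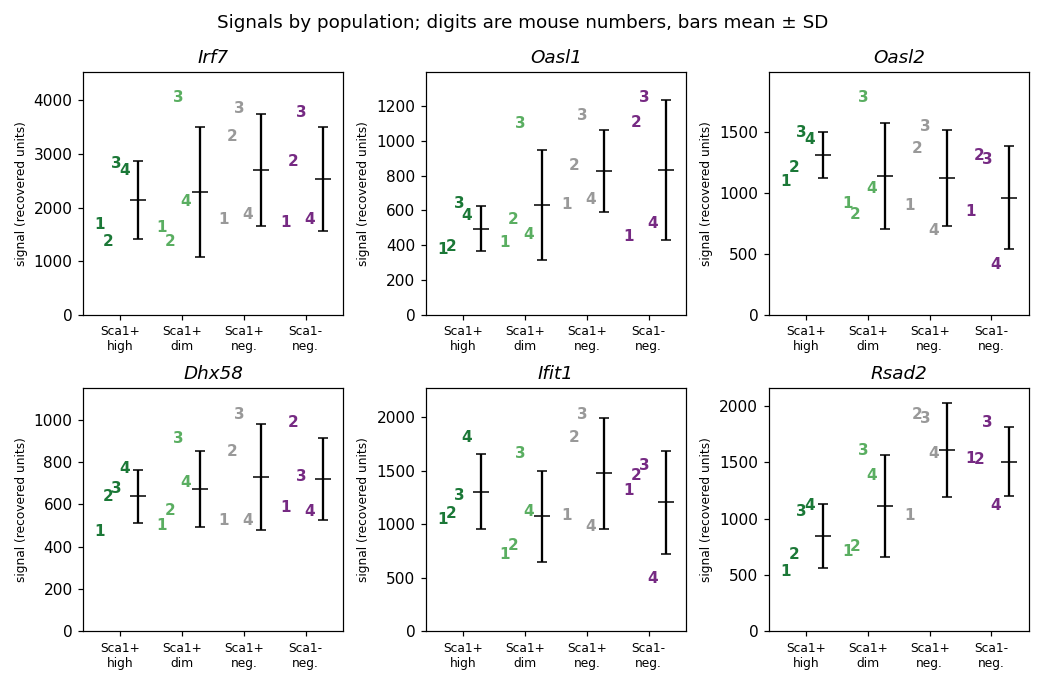
Signal of Irf7, Oasl1, Oasl2, Dhx58, Ifit1 and Rsad2 by population, with each array drawn as its mouse number and bars as mean ± SD of 4 arrays. In Irf7 and Oasl1 mouse 3 is the highest array of each population.

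The receptors and relays of the pathway were examined as lists of their own. Of 6 interferon receptor genes, 2 (33.3%) were higher and 1 (16.7%) lower in reporter-high cells when set against Sca1+ reporter-negative ones. Of all genes 17% were higher and 13.9% lower. Ifnar1, a chain of the type I receptor, had 5030, 5050, 4371 and 5251 in reporter-high cells, against 4113, 3248, 3396 and 3533 in Sca1+ reporter-negative cells (0.47 ± 0.11, limma adjusted p = 0.00381). Ifnar2, the other chain, averaged 13500 ± 1143 in reporter-high and 8559 ± 1716 in Sca1+ reporter-negative cells (0.67 ± 0.21, limma adjusted p = 0.0246). Ifngr2, a chain of the interferon gamma receptor, had 3050, 3368, 3479 and 3056 in reporter-high cells, against 5087, 6056, 7818 and 4509 in Sca1+ reporter-negative cells (-0.83 ± 0.19, limma adjusted p = 0.00424). The populations did not overlap in any of these 3 genes. The same 3 genes were called against Sca1- reporter-negative cells, by 0.60 ± 0.11, 1.04 ± 0.21 and -0.89 ± 0.19, where 35.9% of all genes were called. Without mouse 2 only Ifnar1 of these 3 was called against Sca1+ reporter-negative cells (limma adjusted p = 0.038), and all 3 were called against Sca1- reporter-negative cells.

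Of 7 measured genes of JAK-STAT transduction 1 (14.3%) was called in reporter-high against Sca1+ reporter-negative cells, where 30.9% of all genes were called. This was the kinase Jak1, which was higher (15440 ± 1544 in reporter-high and 12740 ± 1146 in Sca1+ reporter-negative cells, 0.28 ± 0.10, limma adjusted p = 0.0499). Of 12 negative regulators 3 (25%) were higher and 2 (16.7%) lower, against 17% and 13.9% of all genes. The feedback inhibitor Socs3 averaged 7951 ± 348.8 in reporter-high and 4939 ± 586.3 in Sca1+ reporter-negative cells (0.69 ± 0.21, limma adjusted p = 0.0221), and the phosphatase Ptpn2 averaged 2858 ± 145.1 in reporter-high and 4565 ± 747.5 in Sca1+ reporter-negative cells (-0.66 ± 0.16, limma adjusted p = 0.00608). None of 11 measured interferon ligands was called in this comparison by limma, with 1 at an unadjusted p under 0.05. Ifna1, with signals of 1575 to 2649, and Ifna5, with at most 1017, were above array background on all 16 arrays. Of the other ligands 5, Ifng among them, were above it on 0 of 16 arrays and 4 on 2 to 10. Genes of the interferon alpha cluster are closely alike in sequence, so signals of single ones are uncertain.

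Interferon-induced genes outside the list moved in both directions. Of 41 listed 34 were measured, and 6 (17.6%) were higher and 8 (23.5%) lower in reporter-high than Sca1+ reporter-negative cells. Of all genes 17% were higher and 13.9% lower. The median difference of the 34 was 0.01. Gbp4, a guanylate-binding GTPase, had 20293, 19989, 18493 and 18194 in reporter-high cells, against 14004, 11553, 9931 and 10777 in Sca1+ reporter-negative cells (0.74 ± 0.13, limma adjusted p = 0.000666). Epsti1 had 215, 297, 479 and 302 in reporter-high cells, near array background, against 894, 1688, 1503 and 1394 in Sca1+ reporter-negative cells (-2.11 ± 0.36, limma adjusted p = 0.000723). Against Sca1- reporter-negative cells 17 (50%) were higher and 4 (11.8%) lower, where 19.2% and 16.7% of all genes were. The higher ones were led by Ifi27l2a (6025 ± 715.1 in reporter-high and 2004 ± 957.9 in Sca1- reporter-negative cells, 1.71 ± 0.26, limma adjusted p = 0.000139).

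Markers of other cell types moved with these comparisons. All 17 measured markers of colon epithelium were lower in reporter-high than Sca1+ reporter-negative cells, and their summed signal ran over 45758 to 187186 for reporter-high, 200675 to 351290 for reporter-dim, 305593 to 468151 for Sca1+ reporter-negative and 277680 to 497147 for Sca1- reporter-negative arrays. Of 12 endothelial markers 9 were lower and 1 higher in the same comparison. Of 17 leukocyte markers 4 were lower, with summed signals of 10895 to 14771 in reporter-high and 15365 to 26317 in Sca1+ reporter-negative cells, and 3 and 4 of the 17 were at array background in these populations. Fibroblast markers were higher in 3 of 8, and in 7 of 8 against Sca1- reporter-negative cells. Of all genes 17% were higher and 13.9% lower against Sca1+ reporter-negative cells, and 19.2% were higher against Sca1- ones. For Actb the 3′ control signal divided by the 5′ one, a sign of RNA quality, was 1.24 ± 0.03 in reporter-high and 1.15 ± 0.07 in reporter-dim arrays, and 1.11 ± 0.01 in the Sca1+ and 1.11 ± 0.05 in the Sca1- reporter-negative arrays (SD, n = 4). For Gapdh the same ratio was 0.997 ± 0.013 in reporter-high and 1.02 ± 0.014 in reporter-dim arrays. It was 0.954 ± 0.008 in the Sca1+ and 0.917 ± 0.017 in the Sca1- reporter-negative arrays. The part of these markers and of RNA quality in the differences was not tested.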

How the data were processed

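RNA (2 ng a sample) was amplified and hybridized to Affymetrix arrays. The submitters' processing notes name Affymetrix Expression Console 1.1. How probe sets were summarised and normalized is not given in the sources used here. What the authors deposited is a score, standardized for each probe set over 16 arrays. Whole-number signals were recovered from these scores in Python 3.11.15 (numpy 2.4.6, numba 0.67.0) for all 45141 probe sets, with recomputed scores within 1e-09. In a test on simulated data 1000 of 1000 probe sets were recovered exactly. The planned log2 test was then run on log2 of these signals.

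limma 3.58.1 in R 4.3.3 (lmFit, eBayes) was fitted to all 16 arrays with 1 mean per population. Tests were two-sided, with Benjamini-Hochberg adjustment over 17097 genes. A gene with several probe sets was read from the one of highest mean signal. Symbols came from the platform's probe table, in which 28898 probe sets carried 1 gene and 551 several. All 34 measured members passed a filter for signals above array background, as did 13583 of all genes. Where a gene has several probe sets, signals in the text are those of the representative one. The fit was also tested on simulated data.

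The members and lists were chosen with earlier results of these data known. All members could be named. Signals of every array are given for up to 8 called members of a comparison with the largest differences and for the brightest member of each role, and context lists give up to 3 called genes. The array signals of Irf7, Oasl1 and Ifit1, and the genes Gbp4 and Ifi203, were chosen after their values were seen.

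Per the labels the same 4 animals gave all populations, so the mouse was used as a block in an alternative. Deviations from population means correlated at 0.519 between arrays of mouse 1, -0.0795 for mouse 2, 0.507 for mouse 3 and 0.112 for mouse 4, against -0.0893 between different mice.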

Additional observations from a re-analysis of the deposited data

Results flagged for a closer look

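In 136 groups of 4 arrays (34 genes in 4 populations), 5 held an array that stood apart from the other 3 by Dixon's criterion, and chance alone marks about 1 in 20 such groups. Stat2 was 2348 in Sca1+ reporter-negative cells of mouse 3, against 1519 to 1627 in the others. Igtp was 3402 in Sca1+ reporter-negative cells of mouse 1, against 2995 to 3062. In reporter-high cells Cmpk2 was 2324 in mouse 4, against 1554 to 1595. Ifih1 was 2290 in mouse 3, against 2663 to 2668, and Eif2ak2 was 677 in mouse 2, against 769 to 775.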

How the results depend on the processing

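The 25 gene differences called above were refitted under 29 settings each, giving 725 values, of which 612 kept direction and call, 112 kept the direction only and 1, Mx1 at 0.23 against Sca1- reporter-negative cells, turned. Settings were unequal in this. Of the 25, 23 kept direction and call without mouse 1, 9 without mouse 2, 17 without mouse 3 and 11 without mouse 4. Called in 29 of 29 settings between the reporter-high and Sca1- populations were Ddx58, Gbp2, Ifi35, Irf9, Psmb8, Samhd1 and Stat2. Scaling to the hybridization controls called 18 genes in reporter-high against Sca1+ reporter-negative, 14 against reporter-dim and 26 against Sca1- reporter-negative cells, where it called 69.1%, 58.1% and 78.2% of all genes. It called 1 between Sca1+ and Sca1- reporter-negative cells, against 2.57% of all genes, and 19 by the F test, against 69.8%. With the replicate block, pairing arrays by mouse number, 1 gene was called in reporter-dim against Sca1+ reporter-negative cells, 1 in Sca1+ against Sca1- reporter-negative cells and 14 by the F test. Other counts moved less than 1.5 times under it. Because arrays of mouse 2 did not match, the block was also run without that mouse, an alternative chosen after seeing the data, with 8 genes called against Sca1+ and 14 against Sca1- reporter-negative cells in reporter-high cells, 4 in reporter-dim against Sca1- reporter-negative cells, 0 in the other 3 comparisons and 8 by the F test. Of all genes this called 26.3%, 30.1% and 13.7% in the first 3, 2.16% to 6.32% in the other 3 and 27.1% by the F test. Between Sca1+ and Sca1- reporter-negative cells 1 gene was called with every probe set tested, with the mean of probe sets and with genes above background. These settings called 2.42% of all probe sets, 2.73% of all genes and 3.11% of genes above background. In reporter-dim against Sca1- reporter-negative cells 2 were called with the deposited scores and 2 with those populations fitted alone, against 5.03% and 7.4% of all genes.

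Leaving out 1 mouse gave 0 to 9 genes in reporter-high against Sca1+ reporter-negative cells, 8 to 17 against Sca1- reporter-negative cells, 0 to 5 in reporter-dim against Sca1- reporter-negative cells, 0 to 1 in Sca1+ against Sca1- reporter-negative cells, 0 in the other 2 and 2 to 9 by the F test. Of all genes 16% to 30.4%, 22.4% to 35.7% and 3.59% to 18.6% were called in the first 3 of these and 15.2% to 31.4% by the F test. In Sca1+ against Sca1- reporter-negative cells 0.778% to 3.49% of all genes were called. The share was 0.0585% to 9.01% in reporter-dim against Sca1+ reporter-negative cells and 0% to 3.63% in reporter-high against reporter-dim cells. Leaving out 1 array gave 3 to 11, 10 to 17, 3 to 5, 0 to 1, 0 and 6 to 13 in the same order, and of all genes 24.1% to 33.2%, 30.1% to 40.1% and 8.24% to 23.5% in the first 3 and 26.1% to 35.8% by the F test. For the other 3 comparisons, in the order just given, these shares were 1.55% to 4.61%, 0.199% to 7.84% and 0% to 4.87%. In reporter-high against Sca1+ reporter-negative cells the count was 4 without the reporter-high array of mouse 2, 5 without that of mouse 3 and 3 without that of mouse 4, and 4 and 3 without the Sca1+ reporter-negative arrays of mice 2 and 4. Of all genes these fits called 24.7%, 30.5%, 27.2%, 25.1% and 25.6% in that order. The causes were not tested. Whether array background was subtracted from the signals is not given. Differences of dim genes may therefore be too small, which was not tested.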

Other observations

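A family of interferon-inducible genes in the same chromosome cluster, the Ifi200 genes, differed between the Sca1+ and Sca1- reporter-negative populations. Ifi204, a nuclear DNA-binding protein, had 907, 1042, 1056 and 1391 in Sca1+ and 321, 279, 302 and 221 in Sca1- reporter-negative cells (limma adjusted p = 1.31e-06). It was not above array background on any Sca1- reporter-negative array, so the difference is a bound, and Ifi204 was at least 3.06-fold higher in Sca1+ cells when each dim array was set no lower than its lowest signal above background. In reporter-high and reporter-dim cells Ifi204 had 420 to 628. Ifi205 averaged 4751 ± 584.7 in Sca1+ and 1452 ± 640.9 in Sca1- reporter-negative cells (1.81 ± 0.23, limma adjusted p = 0.000398), and Ifi203 averaged 1178 ± 202.4 in Sca1+ and 451.7 ± 102.9 in Sca1- reporter-negative cells (1.39 ± 0.17, limma adjusted p = 0.000306). Cxcl10, a chemokine that attracts T cells, averaged 4268 ± 973.1 in Sca1+ and 1654 ± 772 in Sca1- reporter-negative cells (1.46 ± 0.34, limma adjusted p = 0.0344). Myd88, an adaptor of Toll-like receptors, averaged 5323 ± 484.8 in Sca1+ and 3604 ± 345.3 in Sca1- reporter-negative cells (0.56 ± 0.09, limma adjusted p = 0.00156). In this comparison 6 of 34 interferon-induced genes outside the list were higher and 0 lower, against 1.22% of all genes higher, and without mouse 2 the count was 3, against 0.345%. Paralogs of this family may share probes, so signals of single members are uncertain.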
